A study of Mus musculus with 59 samples.

Results

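Gpihbp1 and 4 genes that act with it in the capillary handling of triglyceride-rich lipoproteins (Lpl, Lmf1, Angptl4 and Cd36) were followed in lung, liver and forestomach of mice given a polycyclic aromatic hydrocarbon by mouth. The genes were selected on these data: Gpihbp1 was chosen by its fall in high-dose lung, the largest fall of any probe there, and the other genes because they work with it. They are 5 of the 20018 gene symbols that could be assigned to the array, and they are measured by 7 of its 55681 probes: 1 for Gpihbp1, Angptl4 and Cd36, and 2 each for Lpl and Lmf1. All probes of each gene are reported.

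Adult male mice of the transgenic strain Muta™Mouse, about 16 weeks old, which carries a bacterial reporter gene in all its cells, were gavaged daily for 28 days. The vehicle group received olive oil alone, and benzo(b)fluoranthene in olive oil was given at 25 (low group), 50 (medium group) or 100 (high group) mg/kg-bw/day. The deposit disagrees on the compound. Its sample titles and treatment protocol name benzo(b)fluoranthene, while its exposure labels and design text name benz(a)anthracene at the same doses. The study states these doses for benzo(b)fluoranthene and other doses for benz(a)anthracene, so the doses match benzo(b)fluoranthene. Tissues were taken 72 h after the last dose, from a slice of each organ, so every value is an average over all cells of that slice, and fewer cells of a type cannot be told apart from less RNA per cell. There were 5 mice per group and the same mice gave all tissues, which makes 59 arrays; 1 low-dose lung (mouse 7) was not analysed here. Mice 1 to 5 received vehicle, 6 to 10 the low dose, 11 to 15 the medium dose and 16 to 20 the high dose. The 2 dyes of each array carried tissue RNA (Cy5) and a reference RNA pooled from 11 mouse cell lines (Cy3), so each value below is a log2 ratio of tissue over reference, and a difference of 1 is a 2-fold difference. Ratios of different probes share no common scale, so levels are compared between samples and never between genes.

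Lipoprotein lipase, the product of Lpl, is made by fat, muscle, macrophages and other parenchymal cells, and splits triglycerides of chylomicrons and very-low-density lipoproteins at the capillary wall. GPIHBP1 is an endothelial protein that picks the enzyme up from the interstitial space and carries it to the capillary lumen. LMF1 is a protein of the endoplasmic reticulum that lets the lipase fold, ANGPTL4 is a secreted inhibitor that inactivates it, and CD36 takes up the released fatty acids into endothelial and other cells. Angptl4 and Cd36 are also well-known target genes of the peroxisome proliferator-activated receptors, and the hydrocarbon given here belongs to a class of ligands of the aryl hydrocarbon receptor, which binds DNA at copies of a short core motif.

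Upstream sequence is shown for the members that the RefSeq promoter table (GRCm38.p6) held, since a ligand of that receptor was given. The 250 bases before the annotated start of Lmf1, chr17:25578924-25579173 on the plus strand, held 4 copies of the core motif GCGTG, which are in capitals. The 250 bases before Cd36, chr5:17835897-17836146 on the minus strand, held 0 copies on either strand. Both are written 5′ to 3′.
Lmf1: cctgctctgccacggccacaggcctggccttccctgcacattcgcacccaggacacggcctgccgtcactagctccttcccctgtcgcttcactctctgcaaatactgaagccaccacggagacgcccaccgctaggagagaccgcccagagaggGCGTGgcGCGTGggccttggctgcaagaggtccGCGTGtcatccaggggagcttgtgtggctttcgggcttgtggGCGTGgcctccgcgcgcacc
Cd36: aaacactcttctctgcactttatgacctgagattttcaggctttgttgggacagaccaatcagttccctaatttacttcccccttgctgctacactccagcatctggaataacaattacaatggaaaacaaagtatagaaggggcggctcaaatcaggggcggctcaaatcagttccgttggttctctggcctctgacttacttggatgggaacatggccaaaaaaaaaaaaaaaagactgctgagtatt
At least 1 copy of GCGTG on either strand was found in 28.2% of the 32851 promoters of the table, searched over the same 250 bases. A match is thus common and does not by itself mark a binding site. The share of promoters with 4 copies, as in Lmf1, was not counted. The table held no entry for Gpihbp1, Lpl or Angptl4.

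The arrays differed in quality in ways that touch the members. Probes whose Cy5 signal was flagged as well above background made up 44.8% to 52.7% in lung, apart from medium-dose mouse 13 at 68.9%. They made up 39.6% to 52.0% in forestomach. In liver they made up 37.1% to 46.2% on the first and second slides, but only 10.8% to 13.0% on the third, which held 8 arrays from every dose group (mice 5, 6, 10, 11, 15, 18, 19 and 20). Liver values are therefore given with and without that slide. The tissues carried their own markers: the mean log2 ratio of 5 hepatocyte genes was 6.00 to 7.18 in liver, that of 5 alveolar type 2 genes was 5.17 to 5.87 in lung, and that of 5 squamous epithelial genes was 4.57 to 5.34 in forestomach. Markers of fat and cardiac muscle were uneven between mice, and are given where they stand beside a member.

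In high-dose lung the Gpihbp1 log2 ratio was far below that of every other lung array. The 5 vehicle lungs read 6.18, 6.15, 5.88, 5.97 and 6.65 (mice 1 to 5). The 4 low-dose lungs read 6.07, 5.53, 5.76 and 6.49 (mice 6, 8, 9 and 10). The 5 medium-dose lungs read 6.20, 5.37, 5.48, 5.86 and 5.06 (mice 11 to 15). The 5 high-dose lungs read 3.51, 1.84, 3.98, 3.06 and 1.64 (mice 16 to 20), so the highest of them lay below the lowest array of any other group. The means were 6.17 ± 0.30 (SD, n = 5) with vehicle, 5.96 ± 0.42 (SD, n = 4) at the low dose, 5.59 ± 0.44 (SD, n = 5) at the medium dose and 2.81 ± 1.03 (SD, n = 5) at the high dose.

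The high-dose difference from vehicle was −3.36 ± 0.34 (SE), with a 95% confidence interval of −4.07 to −2.65, which is a 10.3-fold lower level. It chose the gene and is given as a description with no test. The next largest falls among named genes, just outside the choice, were Gzma at −2.69, Sln at −2.07, Car14 at −2.07, Cyp26b1 at −2.03 and Esm1 at −2.01. Within the slides the high-dose difference was −3.49, −1.95 and −4.29, and leaving out each mouse in turn moved it between −3.65 and −3.07. High-dose mice also differed among themselves more than mice of the other lung groups: mice 17 and 20, at 1.84 and 1.64, stood apart from mice 16, 18 and 19. With arrays centred on their median in place of the intensity-dependent normalisation, the difference was −2.57.

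The low- and medium-dose lungs were not part of that choice and were tested, against the same 5 vehicle lungs that the choice had used. The fit pooled the spread of all lung groups, so the chosen high-dose lungs also entered the SE. Their Gpihbp1 SD was 1.03, against 0.30 for vehicle, 0.42 for low-dose and 0.44 for medium-dose lungs. A fit without the high-dose lungs is not given here. Gpihbp1 stood at −0.57 ± 0.34 (SE) relative to vehicle at the medium dose, with an interval of −1.29 to 0.14 and an adjusted p of 0.489. Of the 5 medium-dose lungs 4 lay below all vehicle lungs, and the within-slide differences were −0.80, −0.45 and −0.94. At the low dose the difference was −0.20 ± 0.36 (SE; adjusted p = 0.939), with 2 of 4 lungs below all vehicle lungs. Neither passed the test, and centring on the array median turned the low-dose value to 0.07. Because the wide high-dose spread is part of the SE, these Gpihbp1 results do not exclude a fall in either group. In limma, 0 of 7 member probes were called (adjusted p of at most 0.05 and at least 1.5-fold) at the low dose, where 0.345% of all probes were, and 0 of 7 at the medium dose, where 0.469% were. None of the 7 had an unadjusted p under 0.05 at either dose in this pooled fit. At the high dose 1 of 7 was called, the Gpihbp1 probe, beside 1.45% of all probes, a count that the choice of the gene fixed.

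**Figure D1:**
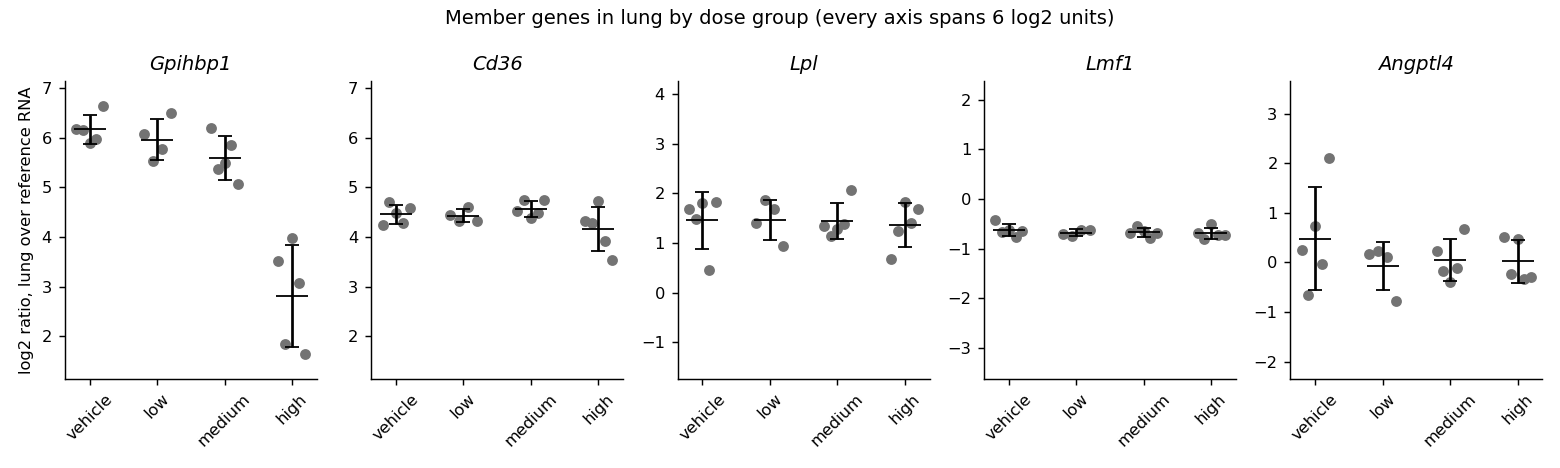
Log2 ratio of lung over reference RNA for each member gene (the brighter probe where there are 2) in the 4 dose groups; grey points are single mice, black bars the mean and SD, and every vertical axis spans 6 log2 units. Gpihbp1 lay between 1.64 and 3.98 in the high-dose lungs and at 5.06 or more in all others, while the high-dose points of Lpl, Lmf1 and Angptl4 fall inside or close to the vehicle range.

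The partners of Gpihbp1 showed no such drop in the same lungs. Cd36, the fatty acid transporter, read 4.24 to 4.70 in the vehicle lungs and 4.31, 4.27, 4.73, 3.91 and 3.54 in the high-dose lungs of mice 16 to 20. The difference was −0.30 ± 0.15 (SE), with an interval of −0.62 to 0.02, and the lowest arrays were mice 19 and 20. Under median centring it turned to 0.17. Mouse 20, lowest for both Cd36 and Gpihbp1, also had the highest adipocyte marker level of all lungs, 3.49 against a vehicle range of 0.35 to 2.74, and the part of this in the 2 values was not tested.

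Lpl itself stayed within the spread between mice. Its brighter probe read 1.69, 1.48, 1.81, 0.46 and 1.83 in the vehicle lungs and 0.68, 1.24, 1.83, 1.41 and 1.68 in the high-dose lungs, a difference of −0.09 ± 0.25 (SE) with an interval of −0.61 to 0.44. The second probe gave −0.26 ± 0.21 (SE), and under median centring the brighter probe gave 0.39. Lmf1, the folding factor, was the steadiest member in lung, with all 19 arrays between −0.82 and −0.43 on its brighter probe. Its high-dose difference was −0.07 ± 0.07 (SE) there and −0.13 ± 0.10 (SE) on the other probe, and the first value was 0.38 under median centring.

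Angptl4, the inhibitor, varied most between vehicle lungs, at 0.24, −0.65, 0.74, −0.03 and 2.10, of which mouse 5 stood far above the rest. The high-dose lungs read 0.51, −0.23, 0.48, −0.34 and −0.30, all within the vehicle range. The difference was −0.45 ± 0.36 (SE), and 0.06 under median centring. Within the first and second slides it was 0.35 and 0.13, and within the third, whose vehicle lung was mouse 5, −2.41. In the tested comparisons of low and medium dose, the adjusted p of the 6 partner probes lay between 0.478 and 0.996.

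The wider lipase pathway in lung was described from lists chosen with earlier results of these data known. Of 18 other genes for cofactors, inhibitors and processing of lipoprotein lipase, limma called 0 at the low, medium and high doses, with 1 and 2 genes at an unadjusted p under 0.05 at the low and medium doses. Their median log2 change was 0.01, 0.08 and 0.13, beside 0.00 over all probes in each comparison. Of 15 genes for fatty acid uptake and its regulators in capillaries, 0 were called at any dose, with 1 and 2 at an unadjusted p under 0.05, and the medians were −0.10, −0.14 and −0.12. Of 20 targets of the peroxisome proliferator-activated receptors other than members, 0 were called at the low and medium doses, with 4 and 5 at an unadjusted p under 0.05. At the high dose 1 was called, Acot1, a cytosolic acyl-CoA thioesterase, at −0.75 ± 0.22 (SE).

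Most genes of a general endothelial marker list stood above vehicle in the high-dose lungs, where Gpihbp1 was low. Of 12 general endothelial markers 10 were higher and 2 lower than vehicle at the high dose, and 4 were called, all higher, beside 1.45% of all probes; since this is the contrast that chose Gpihbp1, the values are a description. Emcn, an endothelial sialomucin, stood at 1.81 ± 0.28 (SE) above vehicle, Cdh5, the cadherin of endothelial junctions, at 0.82 ± 0.20 (SE), Egfl7, a secreted endothelial factor, at 0.82 ± 0.07 (SE), and Pecam1, an endothelial adhesion molecule, at 0.74 ± 0.14 (SE). For each of them the 5 high-dose lungs lay above every vehicle lung, and all 4 were called under every scaling tried. Under median centring 12 of 12 were higher and 7 were called. The mean of the 12 genes was 4.30 to 4.83 in the vehicle lungs and 4.61 to 5.23 in the high-dose lungs. At the medium dose all 12 were higher and 0 were called in limma, with 5 at an unadjusted p under 0.05. Egfl7 came nearest, at 0.56 ± 0.07 (SE; adjusted p = 0.000333), below the fold threshold; the authors' processed values (0.62) and median centring (0.78) called it.

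Markers of the 2 kinds of lung capillary cell included genes called in both directions. Among 7 genes of the aerocyte, the large capillary cell specialised for gas exchange, Ednrb, an endothelin receptor, was −1.24 ± 0.24 (SE; adjusted p = 0.00971) and Fibin −0.88 ± 0.21 (SE; adjusted p = 0.0334) relative to vehicle at the medium dose, where the dosed lungs were not part of the choice. Both fell there, with 4 and 3 of 5 lungs below all vehicle lungs, although the Fibin call was lost under median centring (−0.61). At the high dose they stood at −1.72 ± 0.24 and −1.32 ± 0.21 (SE), with all 5 lungs below all vehicle lungs, while Prx, another gene of the list, stood at 0.60 ± 0.13 (SE), a call lost on the authors' processed values (0.55). Under median centring Car4, a carbonic anhydrase of the same list, was called too (0.80). Among 7 genes of the general capillary cell, Sema3c, a secreted guidance factor, rose at the medium dose by 1.28 ± 0.14 (SE; adjusted p = 6.9e-05) and stood at 2.37 ± 0.14 (SE) at the high dose. The other 6 were not called at any dose, and at the high dose 5 of the 7 were lower than vehicle. Under median centring that direction turned, with 6 of 7 higher, Cd93 was called as well at the high dose (0.59), and Sema3c also at the low dose (0.77). Of the 7 aerocyte genes 4 were higher and 3 lower than vehicle at the medium dose. At the high dose 5 were higher and 2, Ednrb and Fibin, lower. Gpihbp1 was thus −3.36 in lungs where the genes of each capillary list went in both directions.

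**Figure D2:**
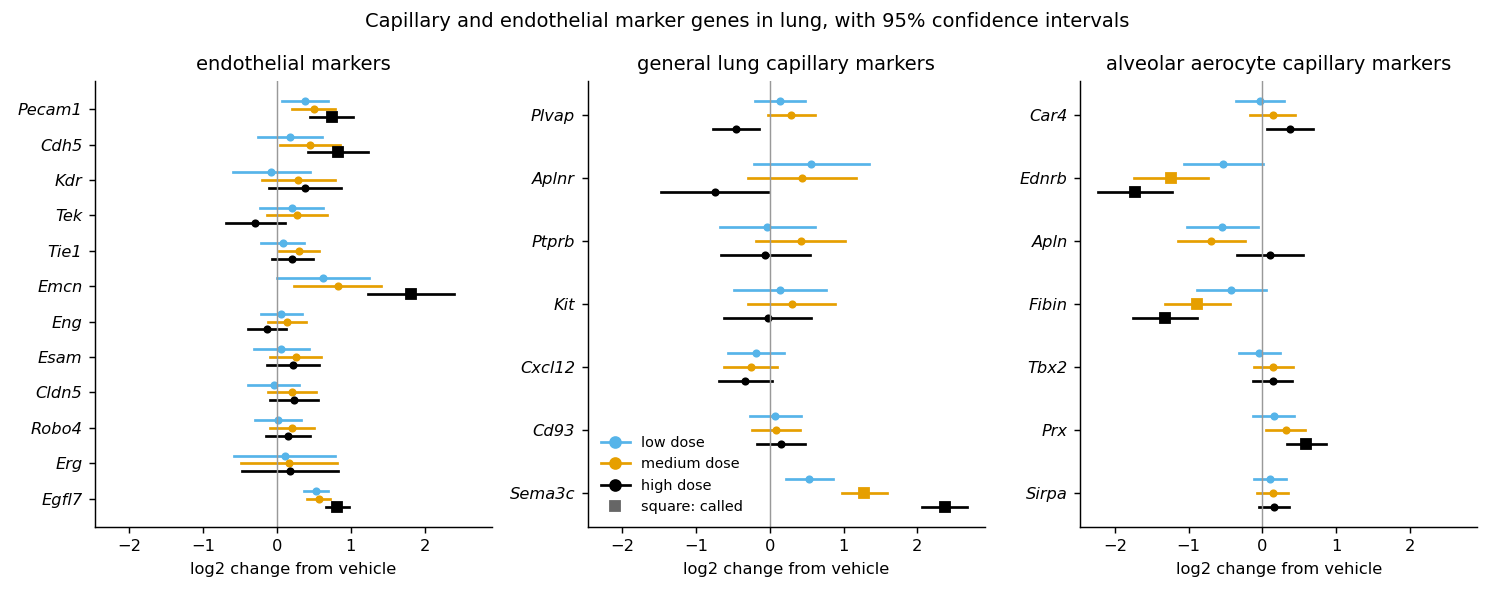
Log2 change from vehicle in lung (horizontal axis) of the genes in 3 marker lists at the low, medium and high doses; lines are 95% confidence intervals and squares mark calls. Ednrb and Fibin lie to the left at the medium and high doses, and Emcn and Sema3c lie farthest to the right at the high dose.

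Adipocyte and cardiac muscle markers in lung were uneven between mice, and the source of their RNA was not tested. The mean of 7 cardiac muscle genes was 0.09 to 4.07 in the vehicle lungs and 0.31 to 4.01 in the high-dose lungs, and that of 8 adipocyte genes 0.35 to 2.74 and 0.40 to 3.49. At the high dose 8 of 8 adipocyte and 6 of 7 cardiac genes were lower than vehicle. None of these genes was called at any dose in limma, with 0 and 4 adipocyte and 0 and 1 cardiac genes at an unadjusted p under 0.05 at the low and medium doses. Mice 17 and 20, with the lowest Gpihbp1, had cardiac means of 0.37 and 4.01 and adipocyte means of 0.40 and 3.49. The part of these markers in the lung values was not tested. Alveolar type 1 and type 2 markers and fibroblast markers had 0 calls, and of 6 alveolar macrophage genes 1 was called at the high dose, Marco, a scavenger receptor, at 1.30 ± 0.35 (SE).

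The genes whose pattern over the 19 lung arrays was most like that of Gpihbp1, among 13418 measured, were H4c4 (r = 0.93), Thbs3 (0.92), Naca, Hilpda and Scx (0.91 each), Dnah8 and H4f16 (0.90 each), H4c14, Syt15 and Wnt10b (0.89 each). Hilpda encodes a lipid droplet protein that inhibits adipose triglyceride lipase. Its mean log2 ratio was 1.98, 1.62, 1.61 and 0.51 from vehicle to high dose. H4c4, H4f16 and H4c14 are histone H4 genes of near-identical coding sequence, so their probes may share transcripts. The most opposite patterns were those of Dync1i1 (r = −0.98), Akr1b8 (−0.96), Bean1 (−0.94), H1f2 (−0.93) and Nhlrc2 (−0.93). Dync1i1, a dynein intermediate chain, kept r = −0.86 after each dose group's mean was subtracted from both genes. Akr1b8, an aldo-keto reductase, kept −0.77, while H4c4 kept 0.74, Hilpda 0.73 and Scx only 0.30. The partners ranked far lower: Cd36 had r = 0.59 (rank 452 from the top), Lmf1 0.32, Angptl4 0.21 and Lpl 0.03. These correlations share the arrays and the high-dose group and are a description only.

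In liver, Gpihbp1 values fell into separate ranges by slide before any dose was considered. The 12 arrays of the first and second slides read 4.37 to 5.65, and the 8 arrays of the third slide read 0.93 to 1.58, whatever the dose. Only 0.313% of all probes had a larger drop on that slide than Gpihbp1, whose difference was −3.80. All 8 arrays of the third slide had the Gpihbp1 probe flagged as well above background, but its signal there was weak. Its mean log2 Cy5 signal was 6.66, against 10.75 on the first and second slides. The Cd36 probe, at a mean log2 Cy5 signal of 6.15, and the dimmer probes of Lpl and Lmf1 were above background on 0 of the 8. Their third-slide values therefore only bound the level. The brighter Lpl probe was above background on only 3 of the 8.

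Fitted over all 20 livers, no member moved past the test. Pooled Gpihbp1 differences were −0.51 ± 1.22, −0.23 ± 1.22 and −1.13 ± 1.22 (SE) at the low, medium and high doses, with adjusted p of 0.997, 0.986 and 0.753. Within the slides the low-dose values were 0.53, 0.18 and −0.06, the medium-dose values 0.66, 0.94 and 0.11, and the high-dose values 0.29 and 0.24, with no high-dose array on the first slide. In limma 0 of 7 member probes were called at each dose, beside 0% of all probes at the low and medium doses and 0.00359% at the high dose. The number with an unadjusted p under 0.05 was 0, 0 and 1.

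Without the third slide, liver Gpihbp1 read above vehicle at every dose and passed the test at the medium dose. The 4 vehicle livers read 4.79, 4.63, 4.69 and 4.37 (mice 1 to 4). The 3 low-dose livers read 4.89, 5.03 and 5.09, the 3 medium-dose livers 5.65, 5.25 and 5.13, and the 2 high-dose livers 5.08 and 4.93. All 8 dosed livers thus lay above all 4 vehicle livers. The medium-dose rise of 0.72 ± 0.12 (SE), a 1.65-fold increase with an interval of 0.46 to 0.99, passed the test (adjusted p = 0.0132). The low- and high-dose values of 0.38 ± 0.12 and 0.38 ± 0.14 (SE) did not, with adjusted p of 0.471 and 0.246. With all 20 livers and the slide as a block, the 3 values were 0.28, 0.55 and 0.41, with adjusted p of 0.690, 0.0657 and 0.164, so that the medium-dose call was lost. That fit includes the third slide, where the Gpihbp1 signal was weak. Without the third slide 0, 1 and 1 of 7 member probes were called at the low, medium and high doses, beside 0%, 0.377% and 0.747% of all probes. With the slide as a block the counts were 0, 0 and 1, beside 0%, 0.104% and 0.25%.

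**Figure D3:**
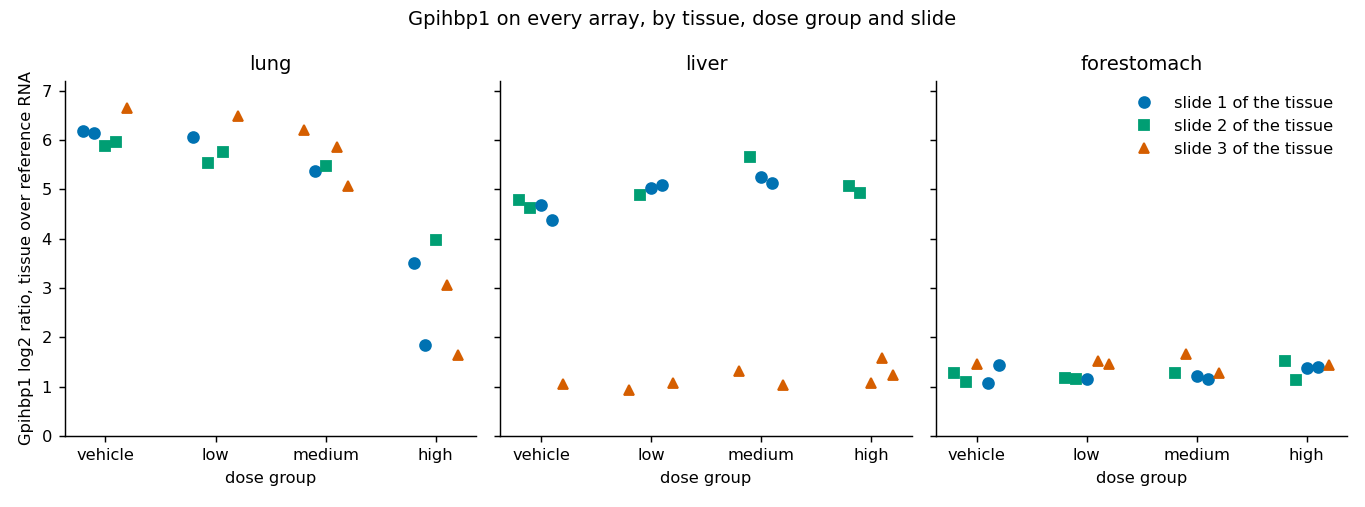
Gpihbp1 log2 ratio of tissue over reference RNA (vertical axis) on every array by dose group, with colour and symbol for the slide of that tissue. In liver the triangles of the third slide lie at 0.93 to 1.58 in every dose group and the other arrays at 4.37 to 5.65; in lung all slides show the low values at the high dose, and in forestomach all arrays lie between 1.06 and 1.67.

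Endothelial markers were read in the same livers. Without the third slide 11 of 12 endothelial genes were higher and 1 lower than vehicle at each dose, with medians of 0.15, 0.38 and 0.40. Those called at the medium dose were Esam, at 0.95 ± 0.14, Tie1, at 0.67 ± 0.10, and Egfl7, at 0.61 ± 0.10 (SE), with adjusted p of 0.00497, 0.00445 and 0.0109. Cdh5, at 0.83 ± 0.12, Tie1, at 0.78 ± 0.11, and Egfl7, at 0.63 ± 0.11 (SE), were called at the high dose, with adjusted p of 0.00352, 0.00277 and 0.0149. Kit, a receptor of the general capillary list, was called at both doses, at 0.90 ± 0.16 and 0.88 ± 0.18 (SE; adjusted p = 0.0138 and 0.0256), and Cd93 at the high dose, at 0.71 ± 0.15 (SE; adjusted p = 0.0375). With all 20 livers and the slide as a block, 11 of 12 endothelial genes were again higher at each dose, with medians of 0.17, 0.33 and 0.17, but the endothelial calls were fewer. They were Tie1 at the medium dose, at 0.60 ± 0.12 (SE; adjusted p = 0.0350), and Egfl7 at the high dose, at 0.66 ± 0.09 (SE; adjusted p = 0.000967), so that those of Esam, of Egfl7 at the medium dose, and of Cdh5 and Tie1 at the high dose were lost. Kit was called at both doses in that fit, and Cd93 at the medium dose in place of the high dose. The part of endothelial content in the Gpihbp1 values was not tested.

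Cd36 was called at the high dose in liver in both fits that dealt with the third slide. The 5 vehicle livers read −0.44, −0.44, −0.43, 0.37 and −0.14 (mice 1 to 5), of which mouse 5 was not above background. The high-dose livers read 0.89, 1.84, 0.27, 0.14 and 0.18 (mice 16 to 20), and only mice 16 and 17 were above background. Over all livers the difference was 0.88 ± 0.31 (SE; adjusted p = 0.540). Without the third slide, with 2 high-dose against 4 vehicle livers, Cd36 rose by 1.60 ± 0.31 (SE), a 3.03-fold increase with an interval of 0.94 to 2.26 (adjusted p = 0.0211). With the slide as a block it was 1.08 ± 0.24 (SE; adjusted p = 0.0350), which was also called. The medium-dose value without the third slide was 0.87 ± 0.28 (SE; adjusted p = 0.208), with mouse 12 highest at 1.23. Under median centring of all 20 livers the high-dose value turned to −0.07.

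The other members gave no call in liver under any of these fits. At the high dose without the third slide Angptl4 stood at 1.10 ± 0.61 (SE; adjusted p = 0.511), and its values spread from −0.56 to 2.56 over all 20 livers. Lpl stood at 0.70 ± 0.42 and 0.75 ± 0.23 (SE) on its 2 probes, with adjusted p of 0.560 and 0.152 and both high-dose livers above all vehicle livers. Lmf1 stood at 0.06 ± 0.10 and 0.09 ± 0.15 (SE), with adjusted p of 0.878 and 0.881. Among the pathway lists, 1 of 18 lipase genes was called there, Angptl8, which takes part in inhibition of the lipase, at 1.20 ± 0.23 (SE; adjusted p = 0.0197). Of 20 receptor targets 1 was called, Ucp3, a mitochondrial carrier, at 0.72 ± 0.17 (SE; adjusted p = 0.0492), and of 15 uptake genes 0. With the slide as a block the calls of Angptl8 and Ucp3 were lost, leaving 0 of 18 and 0 of 20, and 1 of 15 uptake genes was called, Fabp5, a fatty acid binding protein, at 2.05 ± 0.35 (SE; adjusted p = 0.00764). Over all 20 livers none of these lists had a call at any dose in limma, with at most 3 genes of a list at an unadjusted p under 0.05.

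Forestomach, the site of first contact with a gavaged dose, gave Gpihbp1 values that did not pass the test at any dose. All 20 arrays read between 1.06 and 1.67, with means of 1.27 ± 0.19, 1.29 ± 0.18, 1.32 ± 0.20 and 1.37 ± 0.15 (SD, n = 5 each) from vehicle to high dose. The high-dose difference was 0.10 ± 0.11 (SE; adjusted p = 0.864), with an interval of −0.13 to 0.33. The low- and medium-dose values were 0.02 and 0.05, with adjusted p of 0.992 and 0.968, and both turned just below 0 with the slide as a block.

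Angptl4 stood below vehicle at every dose there, without passing the test. The vehicle forestomachs read −1.13, −0.81, −0.04, −0.28 and 0.49 (mice 1 to 5), and the high-dose forestomachs −1.25, −1.59, −0.92, −1.91 and −2.11 (mice 16 to 20), of which 4 of 5 lay below all vehicle arrays. The differences were −0.69 ± 0.29, −0.77 ± 0.29 and −1.20 ± 0.29 (SE) at the low, medium and high doses. None passed the limma test, with adjusted p of 0.976, 0.853 and 0.156, though the high-dose interval was −1.81 to −0.59. The study's own permutation F test, which was not run here, listed this probe as lowered at the high dose in forestomach at the same thresholds. Under the alternatives tried, the high-dose value was −1.39 to −0.86 with adjusted p of 0.0758 to 0.336. The within-slide values were −1.52, −0.45 and −2.08.

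Adipocyte markers were uneven between vehicle mice. The mean of 8 adipocyte genes was 0.21 to 4.35 in the vehicle forestomachs, 0.19 to 2.29 at the low, 0.55 to 2.76 at the medium and 0.56 to 1.85 at the high dose. All 8 were lower than vehicle at each dose and 0 were called in limma, with 1, 1 and 0 at an unadjusted p under 0.05. Mice 3 and 5, with the highest vehicle Angptl4, had the highest vehicle adipocyte levels, 3.09 and 4.35. Mouse 20, with the lowest Angptl4 of all, had the highest adipocyte level of its group, 1.85. The part of these markers in the Angptl4 values was not tested.

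Lpl differed more between single forestomachs than between groups. Its brighter probe ran from −2.26 to 1.54 in the vehicle arrays, −2.03 to 2.71 at the low, −0.70 to 1.55 at the medium and −1.35 to −0.03 at the high dose. Of the 20 arrays 6 were above 0 (mice 1, 5, 6, 9, 13 and 14). Their means of the squamous epithelial genes were 4.78, 5.10, 4.83, 4.57, 4.64 and 4.95, against 4.80 to 5.34 in the 14 arrays below 0. The ranges overlap in part, with mice 1, 9 and 13 below all of those 14. The cut at 0 only marks a level equal to that of the reference RNA. Mice 3 and 5, with the highest vehicle adipocyte levels, lay on opposite sides of it. The part of either marker list in the Lpl values was not tested. The high-dose differences of Lpl were −0.82 ± 0.78 and −0.89 ± 0.56 (SE) on the 2 probes, with adjusted p of 0.834 and 0.704. The interval of the brighter probe ran from −2.45 to 0.82. Lmf1 stood at 0.27 ± 0.12 (SE; adjusted p = 0.53) on its brighter probe and at 0.02 ± 0.10 (SE) on the other. Cd36 stood at −0.16 ± 0.24 (SE; adjusted p = 0.908). In limma 0 of 7 member probes were called at each dose, beside 0%, 0% and 0.07% of all probes, and 1, 1 and 2 had an unadjusted p under 0.05. No gene of the 3 pathway lists was called in forestomach at any dose, with at most 4 genes of a list at an unadjusted p under 0.05.

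**Figure D4:**
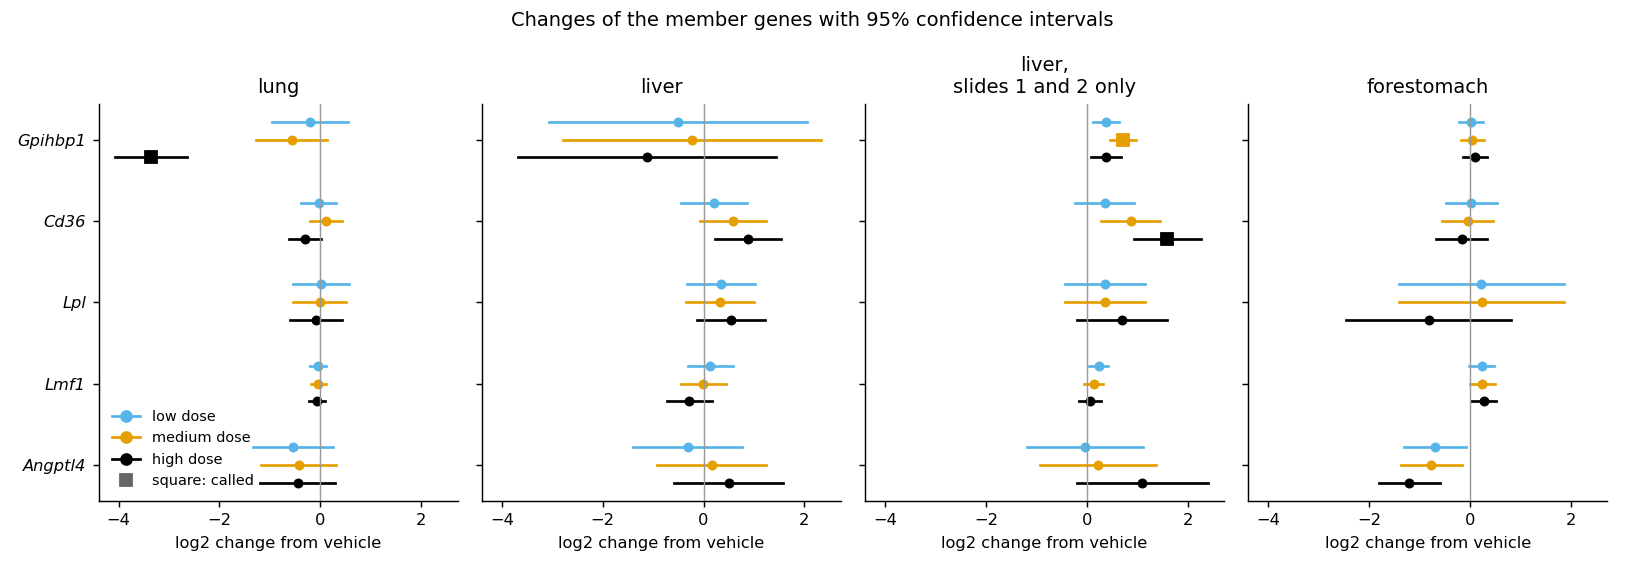
Log2 change from vehicle (horizontal axis) of each member gene's brighter probe in lung, in all livers, in livers of the first and second slides, and in forestomach, with 95% confidence intervals, colour for dose and squares for calls. The only squares are Gpihbp1 in high-dose lung at −3.36 and, in liver without the third slide, Gpihbp1 at the medium dose at 0.72 and Cd36 at the high dose at 1.60.

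Levels of the members in the 3 tissues of vehicle mice were compared to show where each is found. These lung arrays were also part of the contrast that chose Gpihbp1, which favoured a high vehicle level in lung. Its differences between lung and the other tissues are therefore a description. The same comparison on the low-dose mice, which were not part of that contrast, is given where it differed in call. Gpihbp1 ordered lung, liver and forestomach, with means of 6.17, 3.91 and 1.27, and the liver mean was lowered by the single third-slide array (mouse 5 at 1.06). Lung exceeded liver by 2.26 ± 0.53 and forestomach by 4.90 ± 0.53 (SE), and liver exceeded forestomach by 2.64 ± 0.53 (SE; adjusted p = 0.00097). Without mouse 5's liver the lung-to-liver difference was 1.55 ± 0.14 and the liver-to-forestomach difference 3.35 ± 0.14 (SE). In the low-dose mice, 2 of whose livers were on the third slide, the liver-to-forestomach difference was 2.11 ± 0.77 (SE; adjusted p = 0.0595) and was not called.

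Cd36 was highest in lung. Lung exceeded liver by 4.67 ± 0.22 (SE; adjusted p = 6.8e-11), a 25.5-fold difference, and forestomach by 3.64 ± 0.22 (SE; adjusted p = 1.8e-09). Liver minus forestomach was −1.03 ± 0.22 (SE; adjusted p = 0.00127), so liver was the lowest. Lpl was higher in lung than in liver on both probes, by 1.79 ± 0.57 and 1.42 ± 0.44 (SE; adjusted p = 0.0193 and 0.0169). It exceeded forestomach by 1.63 ± 0.57 (SE; adjusted p = 0.0392) on the brighter probe and by 0.82 ± 0.44 (SE; adjusted p = 0.194) on the other. The Lpl calls depended on single animals and on the scaling: the lung-to-forestomach call was lost without mouse 2, 3 or 4 (adjusted p of 0.166, 0.181 and 0.0719), the lung-to-liver call without mouse 3 (0.0805), and neither was made in the low-dose mice (0.219 and 0.164) or under median centring (0.328 and 0.119).

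Lmf1 had its highest level in liver. On the brighter probe lung minus liver was −2.05 ± 0.12 (SE; adjusted p = 1e-09) and liver minus forestomach 2.06 ± 0.12 (SE; adjusted p = 1.22e-09). The other probe gave −1.49 and 1.39 ± 0.18 (SE). Lung and forestomach did not differ beyond their spread, with an interval of −0.25 to 0.26. Angptl4 was not called in any pair as reported. Its widest gap, liver over forestomach, was 1.38 ± 0.56 (SE; adjusted p = 0.0791), and with the mouse as a replicate block, which the shared animals allow, its adjusted p was 0.00463 and it was called. The low-dose mice gave 1.76 ± 0.36 (SE; adjusted p = 0.00198). In all, 6 of 7 member probes were called between lung and liver, 3 between lung and forestomach and 4 between liver and forestomach, beside 24.4%, 19.1% and 20.1% of all probes. Gpihbp1 is among the calls of both lung pairs, which its choice favoured.

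**Figure D5:**
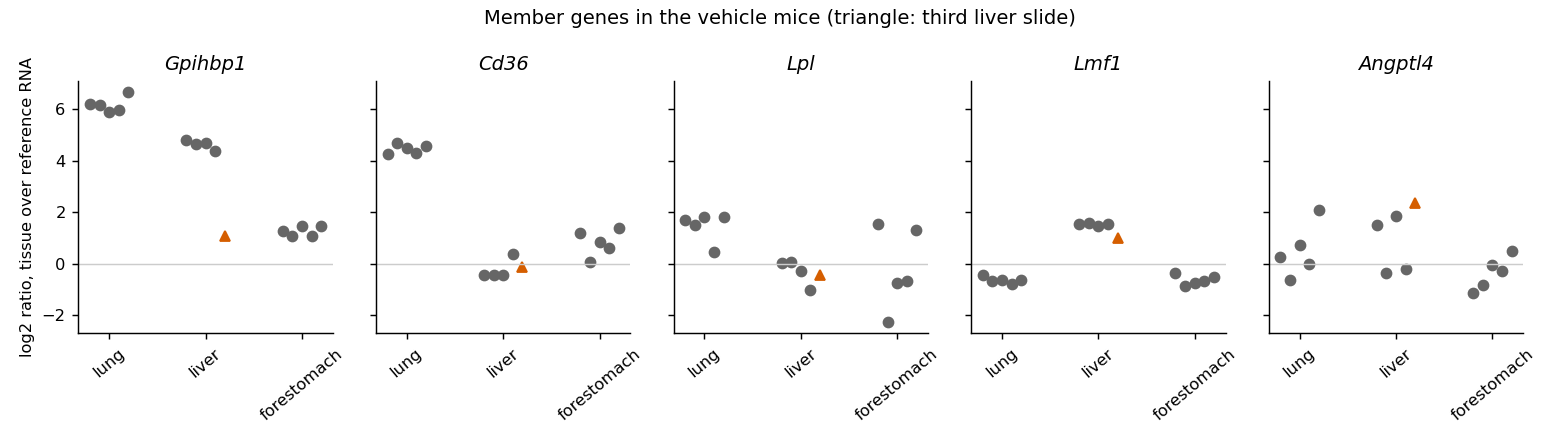
Log2 ratio of tissue over reference RNA (vertical axis) of each member gene's brighter probe in the lung, liver and forestomach of the 5 vehicle mice; points are single mice and the triangle is the array of the third liver slide. Gpihbp1 and Cd36 are highest in lung and Lmf1 in liver, while the ranges of Angptl4 overlap in all tissues.

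The surrounding pathway was split between the tissues as well. Of 18 lipase genes 10 were called lower and 3 higher in lung than in liver, among them Apoc3, an apolipoprotein that inhibits the lipase, at −6.63 ± 0.15, and Apoe, an apolipoprotein of remnant particles, at −3.27 ± 0.15 (SE; adjusted p = 3.18e-14 and 4.62e-11). Of 15 uptake genes 11 were called higher and 2 lower in lung than in liver, among them Cav2, a caveolar protein, at 4.67 ± 0.29, Flt1, a receptor of vascular endothelial growth factors, at 4.31 ± 0.11, and Meox2, an endothelial transcription factor, at 3.41 ± 0.13 (SE), with adjusted p of 2.04e-09, 8.5e-14 and 5.67e-12. Acsl1, an acyl-CoA synthetase, went the other way, at −3.98 ± 0.20 (SE; adjusted p = 2.16e-10). Of 20 receptor targets 12 were called lower and 3 higher, led by Fabp1, the liver fatty acid binding protein, at −6.01 ± 0.38 (SE; adjusted p = 2.74e-09).

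Between lung and forestomach 4 lipase genes were called lower and 3 higher in lung, among them Pcsk6, a proprotein convertase, at −2.83 ± 0.28 and Vldlr, the very-low-density lipoprotein receptor, at 1.49 ± 0.37 (SE; adjusted p = 8.54e-07 and 0.00531). Of the uptake genes 7 were called higher and 6 lower, with Flt1 at 4.46 ± 0.11 and Fabp5 at −5.03 ± 0.28 (SE; adjusted p = 2.19e-14 and 7.21e-10). Of the receptor targets 2 were called higher and 4 lower. Liver exceeded forestomach in 10 lipase genes and was lower in 4. It was lower in 7 uptake genes and higher in 2, and higher in 11 receptor targets and lower in 4. These counts stand beside the 24.4%, 19.1% and 20.1% of all probes called in the same pairs.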

How the data were processed

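Deposited files were the scanner output of 59 Agilent 2-colour mouse arrays (Feature Extraction; Cy5 tissue, Cy3 reference, no dye swap) and a value table. The median intensity of each spot was used as deposited, per the file headers. The authors' log2 ratio per probe in the value table, which they made by LOWESS without background correction, served as an alternative; its direction and scale were checked against the scanner values (r of 0.967 to 0.999 across probes).

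Here, 59305 non-control spots of 62976 were averaged to 55681 probes, and log2(Cy5/Cy3) was loess-normalised within arrays without background correction (limma 3.58.1, R 4.3.3). Dose groups were compared with vehicle within each tissue, and tissues among vehicle mice, by lmFit and eBayes over all probes with Benjamini-Hochberg adjustment; a call needed an adjusted p of at most 0.05 and at least 1.5-fold, thresholds of the study, whose own permutation F test was not run. Probes were named through RefSeq accessions (26413 probes, 20018 symbols). Member genes, gene lists and tests were chosen with earlier results of these data known. Named genes were all members, at most 4 called genes per list and comparison with the largest changes, and the 10 highest and 5 lowest correlations with Gpihbp1 in lung. Apoc2, Siglec5, Cd68 and Rtkn2 of the lists had no matched probe, and 1 gene of the lists is not reported by name here.

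The same mouse gave all tissues, which pairs them; deviations of same-mouse arrays from their group means correlated at −0.12 to 0.13 over the 5 vehicle mice. Alternatives were median centring, normexp correction (offset 50, on median signals; chosen after seeing the files), the authors' log2 ratios, a filter on dim probes, slide and replicate blocks, omission of the third liver slide, the low-dose mice and omission of each mouse. Scripts were tested on simulated data. No depth exists for arrays: their number limits precision.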

Additional observations from a re-analysis of the deposited data

Results flagged for a closer look

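In 8 of 84 groups of 4 or 5 arrays, 1 member value lay apart from the others of its group by Dixon's 95% criterion, which chance meets in about 1 of 20 groups. Those in liver were Gpihbp1 (1.06) and Lmf1 (1.01) in vehicle mouse 5, the vehicle array on the third slide, and Cd36 (0.67) in low-dose mouse 8. In lung they were Lpl in vehicle mouse 4 (0.46) and medium-dose mouse 15 (2.07), and Angptl4 in low-dose mouse 10 (−0.78). In forestomach they were Gpihbp1 in medium-dose mouse 12 (1.67) and the dimmer Lpl probe in high-dose mouse 16 (0.96).

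Gpihbp1 in high-dose lung and liver lay on opposite sides of vehicle when each array was set against the vehicle arrays of its own slide. All 5 lungs lay below them, by −3.50 on average, and all 5 livers above them, by 0.26 on average. The high-dose liver change passed no test, and 3 of those livers were set against a single vehicle array, mouse 5 at 1.06, with the nearest, mouse 18, at 1.08. The difference between the tissues was not tested, since the lung values chose the gene.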

How the results depend on the processing

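No member probe was called at the low and medium doses of lung or at any dose of forestomach under any alternative run, including omission of each mouse; the high-dose lung call of Gpihbp1 was fixed by the choice of the gene and says nothing of stability. Member calls between tissues numbered 6, 3 and 4 and changed as follows. Under median centring 3 member probes were called between lung and liver and 2 between liver and forestomach; omission of each mouse gave 4 to 6, 2 to 3 and 4 to 5. The mouse as a replicate block, a paired fit, gave 6, 3 and 5, the added call being Angptl4, and changed no other call. In liver 1 member probe was called at the high dose with the slide as a block, and 1 each at the medium and high doses without the third slide, against 0 over all arrays. The cause of these changes was not tested.

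Over all probes, the dim-probe filter called 40 against 2 in high-dose liver, 4 against 0 in medium-dose liver and 59 against 39 in high-dose forestomach, and the authors' values 4 in high-dose liver. Median centring called 3600 against 807 in high-dose lung (99.0% higher against 71.3%), 393 against 261 in medium-dose lung (98.5% against 77.8%), 149 against 39 in high-dose forestomach, and 7027, 5189 and 5565 between tissues, against 13605, 10615 and 11208. It moved the member probes of high-dose lung by a median of 0.47.

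Directions reversed only among values not called as reported. Median centring gave, in lung, Gpihbp1 0.074, Lmf1 0.20 and Cd36 0.22 at the low dose, and Lpl 0.23 and Lmf1 0.16 at the medium dose. In liver it gave Lpl −0.22, −0.37 and −0.75 from low to high dose, Lmf1 −0.57 and Cd36 −0.16 at the low dose, Angptl4 −0.70 and −0.83 at the medium and high doses, and Cd36 −0.073 at the high dose. In forestomach it gave Cd36 0.075 and 0.11 at the medium and high doses, and between lung and forestomach Lmf1 −0.070. Medium-dose liver Lmf1 was 0.011 with normexp, 0.040 with the authors' values, 0.12 with the slide as a block and 0.14 without the third slide. The slide block also gave Gpihbp1 0.28, 0.55 and 0.41 in liver, −0.022 and −0.0016 in low- and medium-dose forestomach, Cd36 −0.022 in low-dose forestomach and Lpl −0.019 in low-dose lung. Without the third slide liver Gpihbp1 was 0.38, 0.72 and 0.38 and high-dose Lmf1 0.062. In the low-dose mice Lmf1 was −0.28 between lung and forestomach.

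Omission of each mouse crossed 0 for low-dose lung Lpl (−0.23 to 0.19), Lmf1 (−0.084 to 0.0020) and Cd36 (−0.092 to 0.027); medium-dose lung Lpl (−0.26 to 0.080) and Lmf1 (−0.080 to 0.0065); low- and medium-dose liver Gpihbp1 (−1.22 to 0.11 and −0.95 to 0.43) and Angptl4 (−0.66 to 0.017 and −0.19 to 0.49), and medium-dose liver Lmf1 (−0.11 to 0.11). In low- and medium-dose forestomach it did so for Gpihbp1 (−0.033 to 0.073 and −0.038 to 0.10), Lpl (−0.43 to 0.75 and −0.29 to 0.66) and Cd36 (−0.16 to 0.17 and −0.23 to 0.093). Between tissues it did so for Lmf1 in lung and forestomach (−0.046 to 0.036) and Lpl in liver and forestomach (−0.79 to 0.23). Signal over background limits the third liver slide.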
